A study of Homo sapiens with 4 samples.

Results

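The genes described here are the olfactory receptors among the differentially expressed protein-coding genes that the authors deposited as a table, taken as every symbol made of OR, digits and a letter. There were 10 of them among the 742 symbols of that table. They were chosen because they were listed, so their values describe the selection and no test was made on them. RNA was sequenced from K562, a long-established human line of chronic myelogenous leukaemia labelled as lymphoblast, 36 hours after transfection. The 2 groups were cells given an siRNA against the long non-coding RNA HMRHL and cells given a scrambled control siRNA, with 2 libraries each. HMRHL lies in an intron of PHKB, and both groups were the same line at the same range of passages. Nothing in the labels tells if replicate libraries were grown as separate cultures. The table holds 1 fold change per symbol, with no level, p-value or value per library, so neither the spread between libraries nor the depth behind a value is known. Values were read as log2 of HMRHL siRNA over scramble, which the table does not state, and "higher" and "lower" below refer to that reading.

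Olfactory receptors are rhodopsin-like G protein-coupled receptors that detect odorants on the cilia of sensory neurons in the nose. Each neuron normally expresses a single receptor gene from a single allele, the rest of the family being kept silent. An activated receptor works through the G protein subunit encoded by GNAL, the adenylyl cyclase ADCY3 and a cyclic nucleotide-gated channel. The genes have a single coding exon and stand in clusters across the genome, and families 51 to 56 form class I, the fish-like receptors, while the others form class II. The beta-globin genes, which include the fetal genes HBG1 and HBG2 and the embryonic gene HBE1 that K562 cells are known for, lie inside a class I cluster on chromosome 11. OR52A1 has also been called HPFH1OR, after hereditary persistence of fetal haemoglobin, and is known as an olfactory receptor gene of the extended beta-globin locus that erythroid cells transcribe.

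What makes the members a family, and where they vary within it, can be seen in a stretch of coding sequence. This stretch encodes the end of the third transmembrane segment and the DRY motif, which couples such receptors to their G protein. In 274 of 386 annotated olfactory receptor genes (71.0%) the codons of this motif were found in frame. The stretch is shown for 8 of the 10 members as 30 bases of coding sequence from GENCODE release 29, with the 9 bases at the place of the motif in capitals.
OR52A1: atggccctgGACCGTTATgtggccatctgt
OR51M1: atgtcctttGACCGCCTTgtggccatctgc
OR56A4: atggcctatGACCGTTATgtggccatctgc
OR6A2: atggcctatGATCGCTATatggccatctgc
OR2D3: atgtcctatGACCGGTATgtggctgtctgc
OR8B4: atggcctatGATCGCTATgtggccatctgc
OR13A1: atggcctatGACCGGTACgcagccatctgc
OR2A4: atgtcctatGATCTGTACgtggccatctgc

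Of the 10 members, 8 carry the codons of the motif, OR10A5 and OR10A2 among them, whereas OR51M1 and OR2A4 do not. For these the in-frame stretch most like that of the family is shown. OR51M1 has the second codon and not the third, and OR2A4 the third and not the second. OR6A2 and OR8B4 share the same 9 bases at the motif, as do OR52A1 and OR56A4, although OR6A2 and OR8B4 are class II genes of separate runs on chromosome 11. Among the 274 genes with the motif, the bases of OR6A2 and OR8B4 occur in 14.6% and those of OR52A1 and OR56A4 in 5.84%.

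Of the 10 genes, 1 was listed as higher and 9 as lower, against 30.6% higher and 69.4% lower among all 742 symbols. OR52A1, which lies 70.7 kb from HBB with the unlisted OR51V1 between them, had the only positive value. It was at 4.10 in the authors' deposited table, which is 17.2-fold on that reading. The 9 others lay in a narrow band between -1.19 and -1.81 in the authors' deposited table, with a median of -1.43, or 2.70-fold lower. The median of all 515 lower symbols was -1.71. Since the members were picked from these listed values, the split is read as a description of the table and of nothing beyond it.

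**Figure D1:**
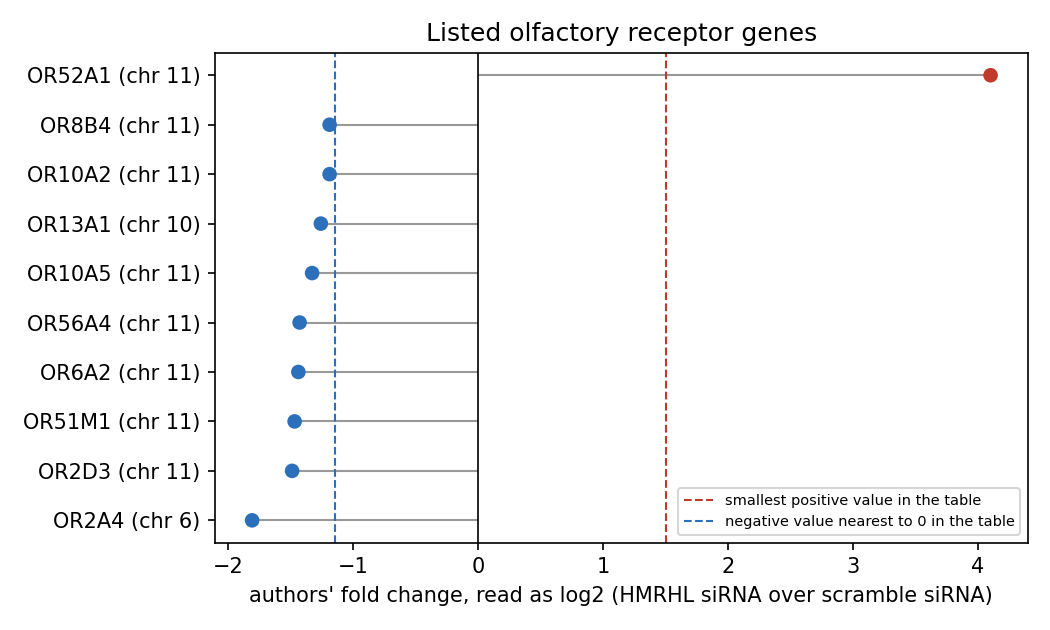
Fold changes of the 10 olfactory receptor genes from the authors' deposited table, read as log2 of HMRHL siRNA over scramble siRNA, with 1 point per gene and no error available. OR52A1 stands alone at 4.10, and the 9 others lie between -1.19 and -1.81. Of these, all but OR2A4 at -1.81 lie between -1.19 and -1.49. The dashed line at -1.15 marks the negative value nearest to 0 in the table.

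OR52A1 ranked 7 among the 227 higher symbols, between SRPX2 at 4.17 and C1orf167 at 3.99 in the authors' deposited table. It was also the only member with a change of at least 4-fold, a size that 39.6% of all listed symbols had. Among the lower members OR2A4 was the lowest at -1.81 in the authors' deposited table (3.51-fold), and it ranked 225 by size among the 515 lower symbols, farther from 0 than their median of -1.71. The 8 others were nearer to 0 than that median. The next were OR2D3 at -1.49, OR51M1 at -1.47, OR6A2 at -1.44 and OR56A4 at -1.43 in the authors' deposited table, with ranks between 349 and 374. OR10A5 stood at -1.33, OR13A1 at -1.26, and OR10A2 and OR8B4 at -1.19 each in the authors' deposited table, and OR10A2 and OR8B4 ranked 486 and 489. The last is close to the end of the list, at -1.15 in the authors' deposited table. What lies nearer to 0 was not analysed here. No order among the 9 lower genes is read from these values, since their spread between libraries is unknown and 8 of them lie within 0.30 on the log2 scale.

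The table admitted lower genes at smaller sizes than higher ones, the smallest positive value being 1.50 and the negative value nearest to 0 being -1.15. Of the lower olfactory receptors, 8 of 9 (88.9%) lay nearer to 0 than any higher gene, against 34.2% of all lower symbols. OR2A4 was the lower member outside that range. A total of 141 lower symbols, these 8 included, had values in the range from -1.19 to -1.49.

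**Figure D2:**
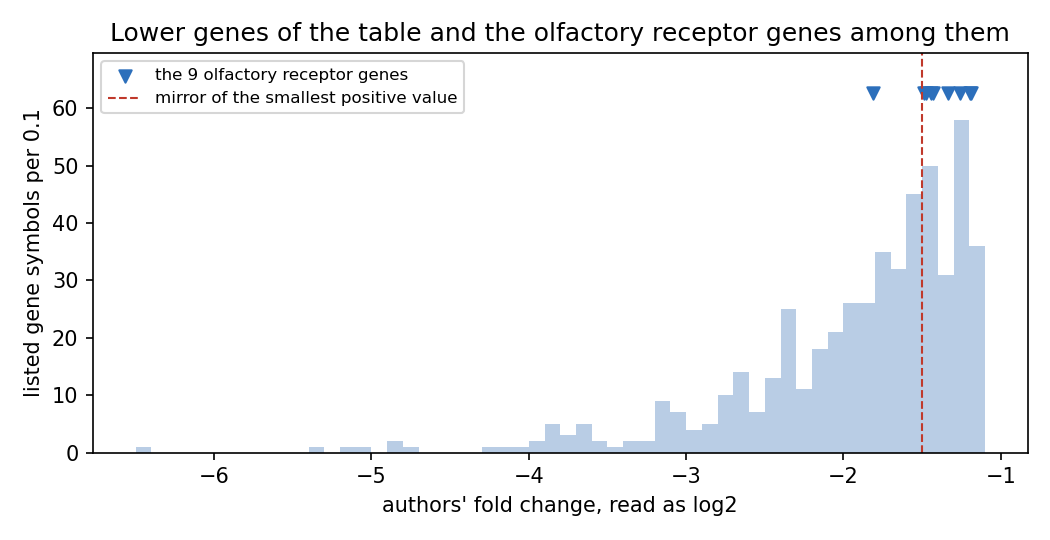
Histogram of the 515 lower symbols of the authors' deposited table in bins of 0.1 on the log2 scale, with the 9 lower olfactory receptor genes as triangles above it. The dashed line is the mirror image of the smallest positive value, 1.50, and 8 of the 9 triangles lie between it and the end of the list at -1.15.

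Of the 386 protein-coding olfactory receptor genes in GENCODE release 29 (GRCh38), 10 were listed, or 2.59%, against 3.71% of all 19969 annotated protein-coding genes, a share at which 14.3 would appear. The listed genes were on 3 of the 18 chromosomes that hold such genes. Chromosome 11 held 8 of them, that is 4.79% of its 167 olfactory receptor genes, while 2 of the 219 elsewhere (0.913%) were listed. Over all its protein-coding genes, 3.59% of chromosome 11 was listed. Chromosome 1 had no listed gene among 60 and chromosome 9 none among 25. Chromosome 11 holds 43.3% of the annotated family and 80.0% of the listed members. How many of the unlisted receptors had enough reads to be tested is unknown, so these shares do not compare changed with unchanged genes.

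**Figure D3:**
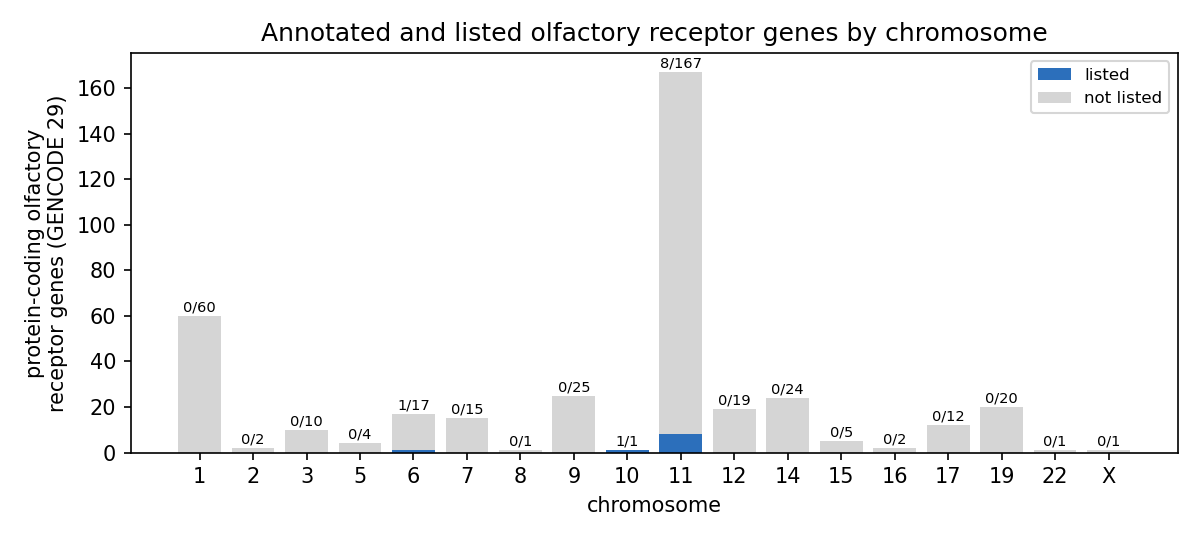
Protein-coding olfactory receptor genes in GENCODE release 29 by chromosome, with those listed in the authors' deposited table in blue and the number listed over the number annotated above each bar. Listed genes were on chromosome 11 (8 of 167), chromosome 6 (1 of 17) and chromosome 10 (1 of 1).

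When olfactory receptor genes less than 1 Mb apart were joined, they formed 40 runs, of which 4 held a listed gene. The run around the beta-globin genes, chr11:4367263-7941708, had 66 olfactory receptor genes, and 7 of them (10.6%) were listed. The other run on chromosome 11 with a member had 22 genes, of which OR8B4 was listed. The largest runs without a listed gene were that of 48 genes on chromosome 11 and that of 42 genes on chromosome 1. OR13A1 and OR2A4 each stand alone, more than 1 Mb from any other protein-coding olfactory receptor gene. By class, 3 of the 54 class I genes (5.56%) and 7 of the 332 class II genes (2.11%) were listed, against 3.71% of all protein-coding genes. All 54 class I genes are on chromosome 11, where 4.79% of the olfactory receptor genes were listed. These shares do not separate class from chromosome.

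Class I members on both sides of the globin genes were listed, in opposite directions. OR52A1, chr11:5143219-5154757 on the minus strand, lies 70.7 kb from HBB on its 3′ side. OR51M1, chr11:5383812-5393263 on the plus strand, lies 154 kb from HBB on its 5′ side. In the authors' deposited table OR52A1 was at 4.10 and OR51M1 at -1.47. The 4 olfactory receptor genes placed wholly between them, over 229 kb, were not listed. None of HBB, HBD, HBG1, HBG2 and HBE1 was listed either, nor any other of the 15 genes on the list of the beta-globin locus and the TRIM genes of that region. The 15 include HBBP1 and BGLT3, which are not protein-coding and could not enter such a table. At the share of all protein-coding genes, 0.556 of the 15 would appear, and fewer without these. The absence is therefore not read as a result. OR56A4, the third class I member, chr11:5999445-6006946 on the minus strand, was at -1.43 in the authors' deposited table and lies 770 kb from HBB. The nearest olfactory receptor genes on either side of it, OR52L1 and OR56A1, 12.5 kb and 12.4 kb away, were not listed.

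**Figure D4:**
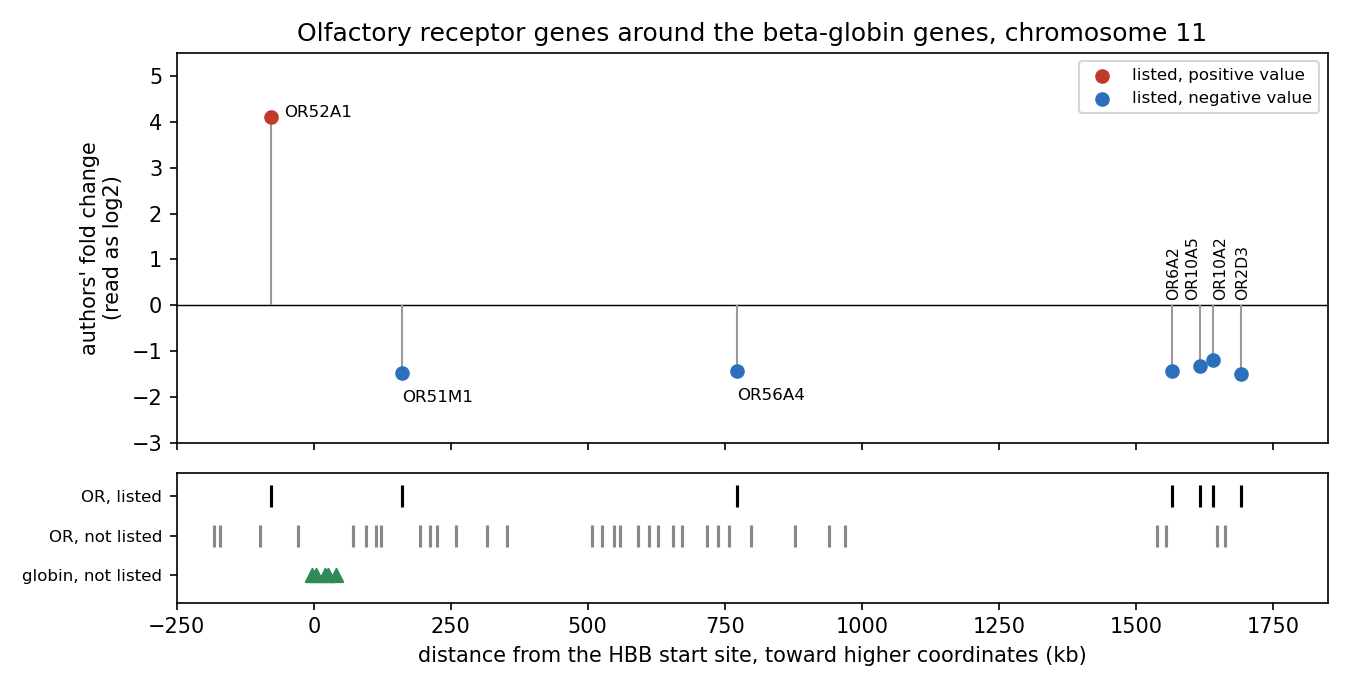
The upper panel gives the value of each of the 7 listed olfactory receptor genes of this region in the authors' deposited table, against the distance of its coding part from the HBB start site in kb. The lower panel marks the same 7 genes, 34 olfactory receptor genes that were not listed and the 5 beta-like globin genes. OR52A1 alone is positive, at 4.10, and the 4 genes from OR6A2 to OR2D3 stand together at the right.

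A closer group of members lay farther along the same run. Within 130 kb, from OR6A2 to OR2D3, the annotation has 6 olfactory receptor genes and no other protein-coding gene, and 4 of the 6 were listed, all as lower, against 10.6% of the olfactory receptor genes of the run and 3.71% of all protein-coding genes. Both ends of this interval were set at listed genes, which raises the count, and OR10A5 and OR10A2 are close copies of each other, so nothing is read from it. OR6A2, the counterpart of the rat receptor I7, which responds to octanal and related aldehydes, spans chr11:6791736-6799689 on the minus strand. OR10A5 (chr11:6845652-6846705), OR10A2 (chr11:6863057-6874717) and OR2D3 (chr11:6920974-6922043) are on the plus strand. Their values in the authors' deposited table were -1.44 for OR6A2, -1.33 for OR10A5, -1.19 for OR10A2 and -1.49 for OR2D3. OR10A4 and OR2D2, which lie between OR10A2 and OR2D3, were not listed, and OR10A4 is 1.91 kb from the end of OR10A2. On the other side of OR6A2, OR2AG1 is 0.177 kb away and was not listed.

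Of the 46 other protein-coding genes of the run, 2 were listed (4.35%), near the 3.71% of all protein-coding genes, and both were lower. DCHS1, a large protocadherin, was at -1.28 in the authors' deposited table and lies 136 kb from OR6A2. APBB1, an adaptor that binds the amyloid precursor protein, was at -1.61 and lies 388 kb from OR56A4. Beyond the run, ASCL2, a basic helix-loop-helix transcription factor, was at -1.77 in the authors' deposited table and lies 2872 kb from OR52A1. ST5 was at -1.96 and lies 1771 kb from OR2D3. Lower values make up 69.4% of the whole table, and neighbouring directions were not tested.

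The remaining members stood apart. OR8B4, chr11:124423904-124424893 on the minus strand, was at -1.19 in the authors' deposited table, with the unlisted OR8B8 and OR8B3 at 12.6 kb and 24.9 kb. Its nearest listed neighbours were SLC37A2, a sugar phosphate exchanger, at -1.17 and 638 kb away, and THY1, a surface glycoprotein, at -2.18 and 4999 kb away, both in the authors' deposited table. OR13A1, chr10:45302298-45315608 on the minus strand, is the only protein-coding olfactory receptor gene of chromosome 10 and was at -1.26, in 2 rows of the authors' deposited table with the same value. Its nearest listed neighbours were MPP7 at -1.21 and CTNNA3, an alpha-catenin, at -2.54 in the authors' deposited table, at 16968 kb and 20597 kb. OR2A4, chr6:131699644-131701401 on the minus strand, was at -1.81 in the authors' deposited table. Its nearest listed neighbours were both higher, with ENPP1, an ectonucleotide pyrophosphatase, at 1.68 and 107 kb away and the laminin chain LAMA2 at 2.38 and 2183 kb away in the authors' deposited table.

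No member shares exonic bases with another annotated gene, but 5 lie inside an intron of a gene on the opposite strand. OR51M1 lies within introns of HBG2, HBE1, OR51B5 and AC104389.4, whose annotated spans of 252, 237, 202 and 424 kb include transcripts that begin far upstream of the globin genes. OR10A5, OR10A2 and OR2D3 all lie within the lincRNA AC087280.2, which spans chr11:6821942-6926877 and, as a non-coding gene, could not enter a table of protein-coding genes. OR2A4 lies within ENPP3, which was not listed. The libraries were made with a stranded kit, and the use of strand in counting is not given in those labels or notes. Reads from unspliced transcripts of these genes were therefore not told apart here from reads of the members. OR52A1, OR56A4, OR6A2, OR8B4 and OR13A1 overlap no other annotated gene.

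The members differ in how closely another gene resembles them, which bears on how reads could be assigned. OR2A4 is matched over all 1758 bases of its transcript by OR2A7 on chromosome 7, at 99.8% identity, and 93.4% of its distinct 50-base words also occur in other annotated genes. RefSeq gives OR2A7 as an alternative name of OR2A4. Their coding sequences of 930 bases differ at 4, A6G, G26C, C712T and G748T, counted from 1 at the start codon with the base of OR2A4 first, and the longest stretch without a difference is 685 bases. Both of the first differences are within the opening 30 coding bases, shown with the differing bases in capitals.
OR2A4: atgggAgacaatataacatccatcaGagag
OR2A7: atgggGgacaatataacatccatcaCagag

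The value of -1.81 for OR2A4 in the authors' deposited table therefore cannot be assigned to OR2A4 alone. OR10A5 and OR10A2, 16.4 kb apart, are the other close pair, with 42 differences over 909 aligned coding bases (95.4% identity). Of the 50-base words, 27.1% of those of OR10A5 and 7.38% of those of OR10A2 occurred in other genes. For OR10A5 these were 272 words, all in OR10A2. For OR10A2 they were 394, of which 272 were in OR10A5, with others in genes outside the family such as GNB5 (59). At the limits set for copies only the coding sequences of the pair matched, and the longest transcripts did not. The annotated exons of OR10A2 hold 4481 bases outside the coding sequence, and those of OR10A5 hold 103. Their first difference is A60G, counted from 1 at the start codon of OR10A5 with the base of OR10A5 first, and it is shown in its surroundings from coding base 46 to 75 of OR10A5.
OR10A5: agcttctcttccctAcctactgaaatacag
OR10A2: agcttctcttccctGcctactgaaatacag

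The values of OR10A5 and OR10A2, -1.33 and -1.19 in the authors' deposited table, may therefore rest in part on the same reads. Both genes are included in the counts given here, and without the 3 members that have near-identical copies, OR2A4 being the third, 6 members were lower and 6 were on chromosome 11. Among the other 44 of the 45 pairs of members, coding identity ranged from 55.2% to 65.9%, with a median of 61.0%. OR56A4 had its closest relative in the unlisted OR56A5 at 88.3%, and 7.54% of its 50-base words occurred in other genes. OR52A1 had 75.1% identity with OR52A5, its neighbour at 4.86 kb, and OR8B4 had 73.8% with OR8B3, both unlisted. For OR52A1 the share of words found in other genes was 1.78%, and for OR51M1 it was 1.39%. OR6A2, OR2D3, OR8B4 and OR13A1 shared no 50-base word with another annotated gene.

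**Figure D5:**
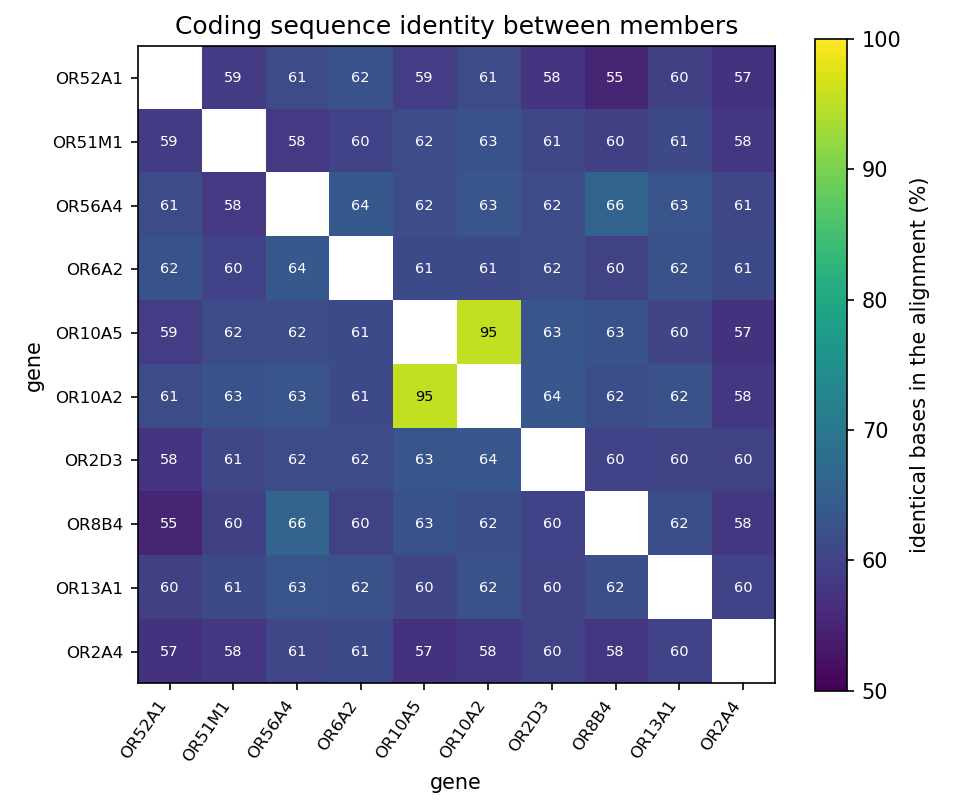
Identity of coding sequences between the 10 listed olfactory receptor genes, as the percentage of identical bases in each pairwise alignment, on a colour scale from 50 to 100. OR10A5 and OR10A2 stand out at 95.4%, and the other pairs lie between 55.2% and 65.9%.

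Gene models also varied. The listed genes had a median of 3312 exonic bases, against 1228 for the 376 unlisted olfactory receptor genes, while the median coding length was 964.5 and 942 bases. Models with no more than a stop codon outside the coding sequence made up 0 of the 10 listed and 94 of the 376 unlisted genes (25.0%). Spliced transcripts were annotated for 6 of the 10 (60.0%) and for 52.4% of the unlisted ones. OR52A1 had the longest exonic sequence of the members, 9783 bases, of which 8847 lie outside the coding sequence. OR8B4 had the shortest, 990 bases, followed by OR10A5 with 1054 and OR2D3 with 1070. The authors' gene models are not given in the labels or notes, and this comparison was not tested.

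Promoter windows of 300 bases, 250 before and 50 after the annotated start, were present for 6 members in the RefSeq table (GRCh38.p14). For OR10A5 and OR2D3 the annotated start is the start codon, so these windows need not contain the place where transcription begins. GENCODE release 29 and RefSeq give the same start for OR13A1, OR56A4, OR6A2 and OR10A2. The windows were poor in G and C, with a median of 41.3% against 37.7% for 314 olfactory receptor genes and 62.7% for 15843 protein-coding genes, and each held between 0 and 2 CG dinucleotides. The short motif GATAA, bound by GATA factors such as the erythroid GATA1, was present on either strand in 5 of the 6, all but OR56A4. In OR10A5 the only match lies past the start codon, inside the coding sequence. GATAA was present in 53.5% of the olfactory receptor windows and 18.2% of all protein-coding ones. In the first 150 bases of the windows it was in 2 of the 6, against 31.5% of the olfactory receptor windows and 11.7% of all. TATAAA, the letters of a TATA box, was in the whole windows of OR10A5 and OR10A2, and in 35.4% of the olfactory receptor windows and 9.63% of all. The match of OR10A5 is in the first 150 bases, far from the annotated start, and that of OR10A2 is not. The windows of OR6A2 and OR10A2, lower members of the same 130 kb with a start upstream of the coding exon, are shown with GATAA and TATAAA on either strand in capitals, and that of OR56A4, which has neither, follows. They are chr11:6799640-6799939 on the minus strand for OR6A2, chr11:6862807-6863106 on the plus strand for OR10A2 and chr11:6006897-6007196 on the minus strand for OR56A4.
OR6A2: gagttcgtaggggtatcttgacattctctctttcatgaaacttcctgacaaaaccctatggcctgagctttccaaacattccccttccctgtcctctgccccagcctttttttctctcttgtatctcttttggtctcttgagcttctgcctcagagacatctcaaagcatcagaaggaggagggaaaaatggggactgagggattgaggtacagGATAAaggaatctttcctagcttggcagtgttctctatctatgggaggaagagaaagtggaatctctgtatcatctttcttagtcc
OR10A2: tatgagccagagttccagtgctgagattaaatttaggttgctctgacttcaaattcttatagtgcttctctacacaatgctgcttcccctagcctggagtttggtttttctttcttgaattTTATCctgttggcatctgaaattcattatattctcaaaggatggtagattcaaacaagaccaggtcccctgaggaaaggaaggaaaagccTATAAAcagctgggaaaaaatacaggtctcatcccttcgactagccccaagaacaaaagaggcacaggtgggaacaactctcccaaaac
OR56A4: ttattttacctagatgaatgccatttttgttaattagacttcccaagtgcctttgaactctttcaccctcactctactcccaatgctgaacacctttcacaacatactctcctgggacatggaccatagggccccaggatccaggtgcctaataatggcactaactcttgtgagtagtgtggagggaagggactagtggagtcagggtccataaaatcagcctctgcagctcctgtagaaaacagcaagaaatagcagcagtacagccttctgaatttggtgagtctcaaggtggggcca

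The homeodomain motif TAATTA was in the windows of OR56A4 and OR2D3, and in 22.9% of the olfactory receptor windows and 3.34% of all. CACCC, read by KLF factors, was in that of OR56A4, against 26.4% and 62.9%. The E-box CACGTG was in none of the 6, against 1.59% of the olfactory receptor windows and 8.88% of all. CCCNNGGG, the core of EBF sites, was also in none of the 6, against 7.96% and 21.6%. The homeodomain, E-box and EBF motifs read the same on both strands, every motif was sought on both, and no motif searched contains another. These matches describe the letters of 6 windows and are not sites of binding.

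Of the machinery that olfactory receptors use, 2 of the 32 genes on the signalling list were in the table, where 1.19 would be at the share of all protein-coding genes. GNAL, the olfactory G protein alpha subunit that also couples dopamine and adenosine receptors in the striatum, was at 1.84 in the authors' deposited table. PDE1C, a calmodulin-dependent phosphodiesterase of olfactory cilia, was at -1.58 in the authors' deposited table. ADCY3, the channel subunits CNGA2, CNGA4 and CNGB1, the chloride channel ANO2 and the receptor transporters RTP1 and RTP2 were not listed. Of 7 markers of olfactory sensory neurons, where 0.259 would be listed at that share, 1 was listed, and this was GNAL, already counted above. OMP, the marker protein of the mature neuron, was not listed. None of 23 genes of receptor choice, LHX2, LDB1 and EBF1 among them, was listed, where 0.852 would be expected at that share. A list of 57 other chemosensory receptors also held genes of the MS4A family, GUCY2D and GUCY2F, so it is broader than its name. Of the 57, 2 were listed as lower and none as higher. At that share 2.11 would be listed, so the count is not read as a result. The 2 were the formyl peptide receptors of phagocytes, FPR1 at -1.25 and FPR2 at -1.78 in the authors' deposited table. No taste, trace amine or vomeronasal receptor was listed. HBG1, HBE1 and GATA1, which mark K562, were not listed, and without levels their presence could not be checked.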

How the data were processed

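RNA-seq of 4 K562 libraries, 2 per group, was available as 1 table of the whole series. Its log2 fold changes were made by the authors from both groups before they were deposited, with no unit or direction stated. They were read as log2 of HMRHL siRNA over scramble, since both signs occur and the number of digits is that of Cuffdiff's log2 column. A signed linear fold change is possible, since it would also take both signs and leave a range around 0 empty. No value lies between -1.15 and 1.50. Cufflinks, Cuffdiff, TopHat, Bowtie2, Trim Galore 0.4.4 and SAMtools 1.3.1, with the builds GRCh38 and hg38, are named without roles in the submitters' processing notes. The threshold of selection, counts, levels and values per library were not analysed here, so no test, replicate error or depth interval was possible, and the knockdown of HMRHL could not be checked.

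Each symbol was counted once (831 rows, 742 symbols). Positions, exons and transcripts came from GENCODE release 29, with 741 symbols matched. Copies were sought with BLAST 2.17.0 (95% identity over at least 50% of a length), and coding sequences were aligned with Biopython 1.88. The sequence tools were tested on simulated data. Named were all members, their nearest listed neighbours, overlapping genes, near-identical copies, listed genes of the lists and the globin genes. Further unlisted neighbours, and families without any listed member, were named after the values were seen. Some sequences and 1 marker gene are not reported here. Members and lists were chosen with earlier results of these data known. Alternatives were a 4-fold minimum, an equal minimum for higher and lower genes, leaving out near-identical copies or overlapping exons, table rows, the linear scale, pseudogenes and a shorter promoter window. Python 3.11.15, numpy 2.4.6, pandas 2.3.3 and matplotlib 3.10.9 were used.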

Additional observations from a re-analysis of the deposited data

How the results depend on the processing

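The majority of lower olfactory receptors rests on genes of small size. The count of lower members was 9, and it was 1 at the same minimum of 1.50 for higher and lower genes, which leaves OR52A1 and OR2A4, and 0 at 4-fold, which leaves OR52A1. The number on chromosome 11 went from 8 to 1 in both settings, and the share of annotated olfactory receptor genes from 2.59% to 0.518% and 0.259%. The whole list shrinks as well. The equal minimum removes 176 of all 515 lower symbols (34.2%), and 4-fold leaves 294 of all 742 symbols (39.6%). The median, -1.38 for all 10 values in the authors' deposited table, turned to 1.15 at the equal minimum and 4.10 at 4-fold, since few members are left there. Without the 3 members that have near-identical copies it was -1.43, with 6 lower and 1 higher. Read as a signed linear fold change, the same column gives a median of -0.47 on the log2 scale, OR52A1 4.10-fold higher and OR2A4 1.81-fold lower. With pseudogenes counted in the family the listed share was 1.18%. Pseudogenes could not enter a table of protein-coding genes, so this fall was fixed in advance. In the first 150 bases of the promoter windows GATAA was in 2 of 6 in place of 5, TAATTA in 1 in place of 2 and TATAAA in 1 in place of 2. Motif counts could not rise there, since these bases are part of the whole window, the part farthest from the start. In the same bases TAATTA was in 15.9% and TATAAA in 18.5% of the olfactory receptor windows. Leaving out overlapping exons changed nothing, since no member has one, and counting rows gave 10 lower. No library could be left out, and no paired analysis was possible because the table has 1 value per gene and none per library. If the deposited values are scramble over knockdown, every sign would turn.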
